A study of Homo sapiens with 8 samples.

Results

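A named set of 10 human selenoprotein genes with SELENO symbols, none of them a thioredoxin reductase, glutathione peroxidase or deiodinase, was followed at the mRNA level in a glioblastoma line with or without TrxR1 and with or without glucose. The genes are SELENOF, SELENOH, SELENOI, SELENOK, SELENOM, SELENON, SELENOO, SELENOS, SELENOT and SELENOW, chosen by symbol in the deposited table, where all 10 have a row among 13730 genes. All 10 were among the 13057 genes that passed the filter on mean expression. They were split by the known site of the protein into 6 that reside in the endoplasmic reticulum (ER), namely SELENOF, SELENOK, SELENOM, SELENON, SELENOS and SELENOT, and 4 others, SELENOH, SELENOI, SELENOO and SELENOW. SELENOI, a membrane enzyme that can be placed in either class, was also counted with the ER genes as an alternative.

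The cells are LN229-TAZ(4SA), which the labels describe as a glioblastoma cell line and name by a TAZ(4SA) construct that every group carries. The groups, with 2 libraries each, were TrxR1 knockout (KO) cells in glucose-deprived medium, control (EV) cells in glucose-deprived medium, KO cells in regular medium and EV cells in regular medium. Time in the glucose-deprived medium, the number of knockout clones and whether libraries came from separate cultures are not given in the sources used here, so loss of TrxR1 and any other difference between these cells cannot be told apart. Letters a and b only name the 2 libraries within a group. Values are CPM, which express a gene's reads relative to the depth of its library, and the whole reads behind them summed to 70083018 to 107229069 per library. Reads per library on the selenoprotein genes ran from 1037 (SELENOM) to 21820 (SELENON). TXNRD1, which encodes TrxR1 and is itself a selenoprotein, was at 370.4 and 350.8 CPM in KO and 508.7 and 492.7 CPM in EV cells in glucose-deprived medium, against 244.9 and 249.5 CPM in KO and 262.8 and 260.6 CPM in EV cells in regular medium. Without glucose its mRNA was called lower in KO than in EV cells (adjusted p = 2.0e-05) and in regular medium it was not (adjusted p = 0.19), and a total per gene does not show whether the edited sequence or the protein is lost. TXNIP, which glucose induces, was at 8.46 and 8.43 CPM in KO and 11.04 and 9.91 CPM in EV cells in glucose-deprived medium, against 77.3 and 81.9 CPM in KO and 85.5 and 87.1 CPM in EV cells in regular medium, so that the columns read as glucose-deprived were the low ones. Their headers carry GlcN, which was read as the glucose-deprived medium of the labels. GlcN can also stand for glucosamine, a sugar absent from the labels, and every comparison of media below rests on the reading taken. Of 9 glioma and mesenchymal markers all 9 were in the table, with summed levels of 5374 to 5825 CPM in glucose-deprived and 5547 to 5770.5 CPM in regular medium. VIM makes up most of that sum, and of the 8 markers that passed the filter 3 were higher and 4 lower with deprivation in each cell type. SOX2 was at 15.1 and 15.2 CPM in KO and 16.9 and 16.7 CPM in EV cells in glucose-deprived medium, against 39.5 and 37.95 CPM in KO and 54.3 and 56.00 CPM in EV cells in regular medium. NES fell by 0.97 in KO and by 1.03 in EV cells on the log2 scale, and OLIG2 rose by 1.32 and 1.24. None of 3 endothelial and 3 epithelial markers had a row, and CD68 was the only one of 5 leukocyte markers with a row, at 44.3 to 54.1 CPM in glucose-deprived and 24.8 to 26.1 CPM in regular medium. All of the 4 neuron markers were present, with summed levels of 335.5 to 383.7 CPM in glucose-deprived and 279.5 to 328.7 CPM in regular medium, most of it TUBB3. SYT1 rose with deprivation by 1.66 in KO and 1.69 in EV cells on the log2 scale, and SNAP25 fell by 0.36 in EV cells, with -0.19 in KO cells (adjusted p = 0.12). These markers, named after their values were seen, and CD68 moved with the medium, and their part in the results was not tested.

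Selenoproteins contain selenocysteine, an amino acid inserted during translation at a UGA codon that otherwise means stop. The insertion needs a hairpin in the 3′ untranslated region of the mRNA, the SECIS element, and the proteins that bind it. Several of the ER members take part in quality control of proteins: SELENOS and SELENOK belong to the membrane complexes that move misfolded proteins out of the ER for degradation (ERAD), and SELENOF binds the glycoprotein folding sensor UGGT. Genes of this kind are known to be induced when unfolded proteins accumulate in the ER, and glucose starvation, which limits protein glycosylation, is a classical cause of that state.

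The 10 named genes are called the family here. What they share with every other selenoprotein gene is the selenocysteine codon. Some members carry it in a thioredoxin-like redox motif, beside a cysteine, and others carry it near the carboxyl end of the protein. The windows below are coding sequence of GENCODE release 29 transcripts on GRCh38, 5′ to 3′, with up to 12 bases on each side. Capitals mark the TGA selenocysteine codon and, where there is one within the 3 codons before it, the nearest cysteine codon.
SELENOK: atggctggtggaTGAggaaggtaa
SELENOS: tcatctggcggaTGAggctaa
SELENOF: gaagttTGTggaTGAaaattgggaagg
SELENON: gaccagtccTGCTGAggttcagggcgg
SELENOT: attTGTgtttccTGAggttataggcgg
SELENOM: accTGCgggggaTGAcagctgaaccgc
SELENOW: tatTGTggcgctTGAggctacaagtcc
SELENOI: ccaaactcagatTGActaggaatggaa
SELENOH: catTGCactagcTGAcgcgtctatggg
SELENOO: ctgTGCgtgacaTGAtcttcgtaa
In these windows SELENOM, SELENOT, SELENOH, SELENOO and SELENOW (5 of 10) had a cysteine codon 3 codons before the selenocysteine codon, the spacing of the CxxU motif, in which U stands for selenocysteine. SELENOF had it 2 codons before and SELENON directly before. The remaining 3 genes, SELENOK, SELENOS and SELENOI, had none within 3 codons. The codon lies at chr3:53885831-53885833 (minus strand) in SELENOK, where 2 codons follow it, and at chr15:101272777-101272779 (minus strand) in SELENOS, where 1 codon follows. In SELENOO 2 codons and in SELENOI 10 codons follow it, whereas in SELENOW it is codon 13 of 87. The chosen SELENON transcript is annotated with 2 selenocysteine codons, and the window shows the one shared by most of its annotated transcripts, at chr1:25812789-25812791 (plus strand).

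**Figure D1:**
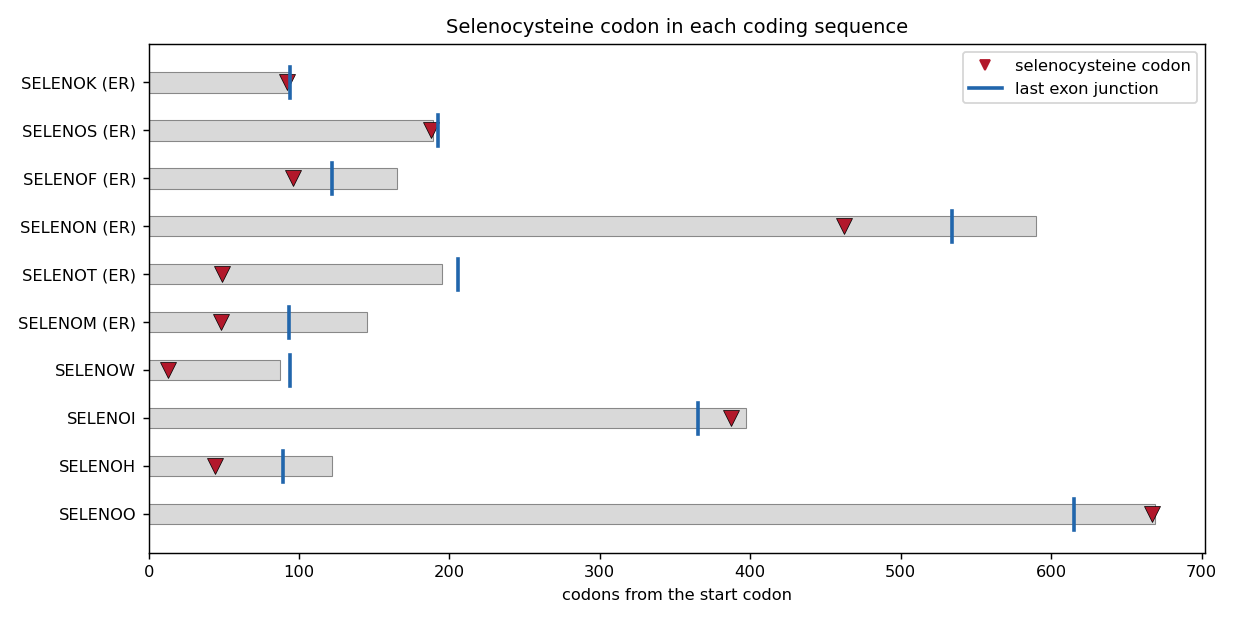
Position of the selenocysteine codon (triangle) in the coding sequence of each gene, in codons from the start codon, with the last exon junction (blue line). Grey bars are drawn to scale. The codon lies in the last exon of SELENOI and SELENOO and 5 and 13 bases before the last junction of SELENOK and SELENOS.

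A UGA read as stop ahead of the last exon junction can mark an mRNA for nonsense-mediated decay, a route by which some selenoprotein mRNAs are known to fall when selenium is short. The codon lay ahead of the last junction in 8 of the 10 genes, and more than 50 bases ahead in 6 of them, SELENOF, SELENOM, SELENON, SELENOT, SELENOH and SELENOW. SELENOK and SELENOS had 5 and 13 bases between them.

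Levels between genes were compared per kilobase of the transcript used for the windows. In EV cells in regular medium SELENOH, a small nucleolar DNA-binding protein, had the highest level at 108.0 ± 0.86 CPM per kb (SD, n = 2). SELENOW, a small cytosolic thioredoxin-like protein, followed at 66.6 ± 0.59 CPM per kb, then SELENOF at 61.7 ± 0.77, SELENON at 48.5 ± 1.1 and SELENOS at 43.3 ± 0.30 CPM per kb. SELENOK was at 22.9 ± 0.75 CPM per kb. The lowest were SELENOT at 17.7 ± 0.45, SELENOM at 17.4 ± 0.45, SELENOO at 15.4 ± 0.45 and SELENOI at 13.2 ± 0.20 CPM per kb. SELENOT and SELENOM did not differ beyond their spread. In EV cells in glucose-deprived medium the order changed at the top, with SELENOS at 84.7 ± 1.8, SELENOH at 70.95 ± 0.72 and SELENOK at 68.1 ± 3.1 CPM per kb. The transcript that the cells use may be shorter or longer than the one taken here, which changes these values and no fold change.

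**Figure D2:**
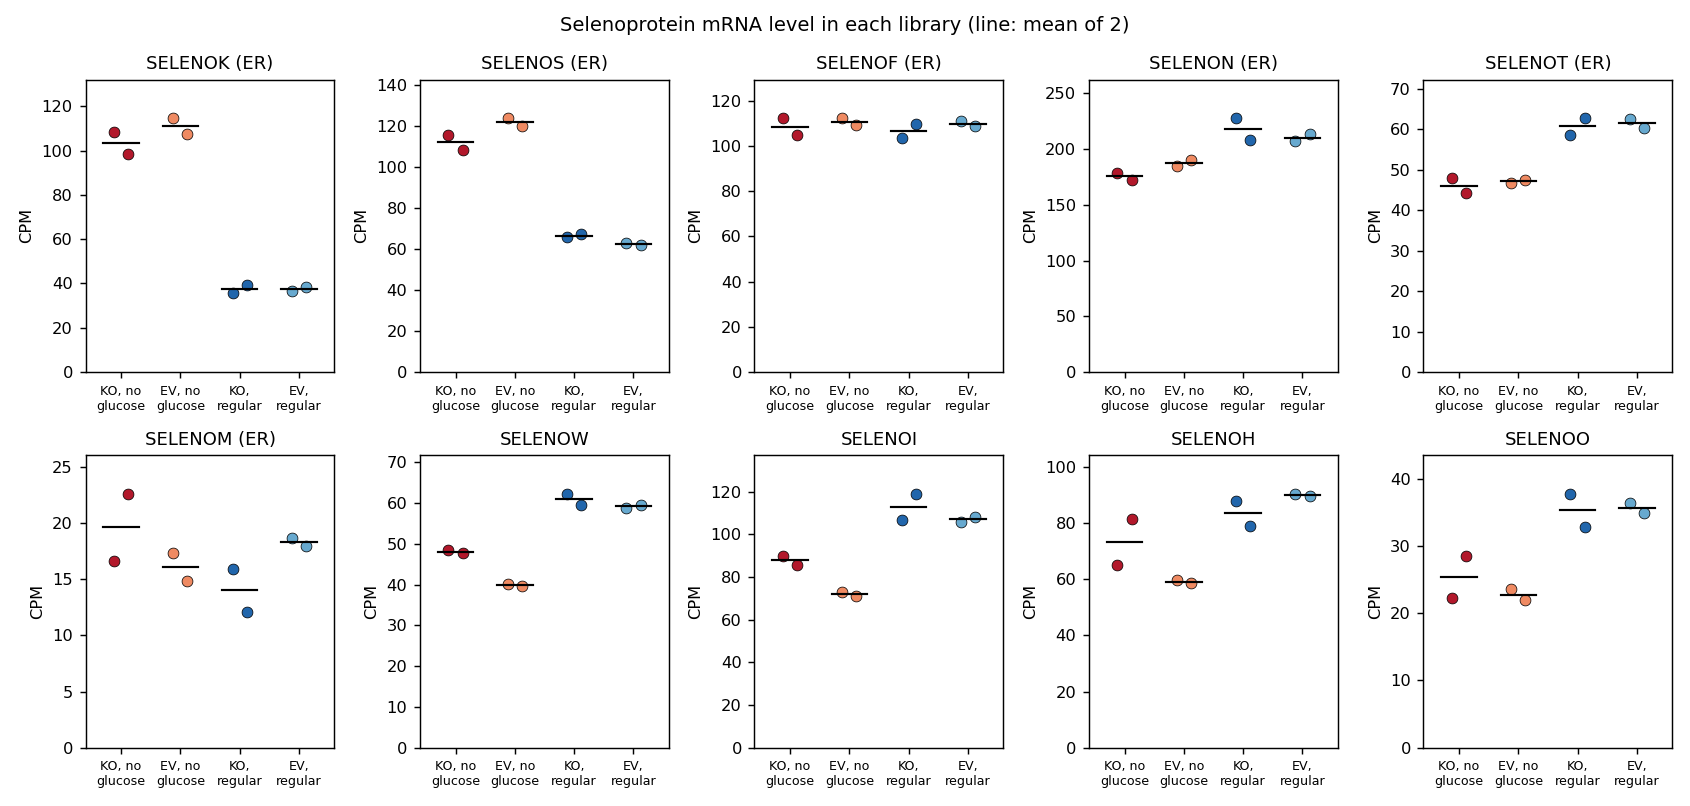
CPM of each selenoprotein gene in every library, with a separate axis from 0 for each gene; points are libraries and lines the mean of 2. Groups run from KO in glucose-deprived medium on the left to EV in regular medium on the right. SELENOK and SELENOS are high in the 4 glucose-deprived libraries, and SELENON, SELENOT, SELENOW, SELENOI and SELENOO are low in them.

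Members of the family moved in both directions with glucose deprivation. In KO cells 3 of the 10 genes rose, SELENOK, SELENOS and SELENOM of the ER class, and 5 fell, of which SELENON and SELENOT are of the ER class, against 36.5% of all genes tested called higher and 36.8% called lower. In EV cells SELENOK and SELENOS (2 of 10) rose and 6 fell, SELENON and SELENOT among them, against backgrounds of 37.5% and 38.7%. With so few genes, these counts are not shown to differ from the shares over all genes. In these bulk libraries a change in every cell and a change in the mix of cells cannot be told apart. With 73.3% of all genes called in KO and 76.2% in EV cells, a call says little by itself, and the sizes below carry the description. The median log2 fold change of the ER-resident genes was 0.25 in KO and -0.076 in EV cells, and that of the other 4 genes -0.35 in KO and -0.59 in EV cells. The median over all genes tested was -0.0015 in KO and -0.011 in EV cells. The ER median in KO cells lies midway between SELENOF (0.023) and SELENOM (0.48). SELENOK, SELENOS, SELENON and SELENOT each had a lower log2 fold change in KO than in EV cells, and SELENOF and SELENOM a higher one. The higher ER median in KO cells was thus not shared by the class. With SELENOI counted as ER-resident, the ER median was 0.023 in KO and -0.16 in EV cells.

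SELENOK had the widest change of the 10. It is a small membrane protein that binds the ERAD proteins DERL1 and VCP and serves as partner of the palmitoyltransferase ZDHHC6. Its level was 108.5 and 98.7 CPM in KO and 114.8 and 107.6 CPM in EV cells in glucose-deprived medium, against 35.6 and 39.4 CPM in KO and 36.5 and 38.2 CPM in EV cells in regular medium. All 4 glucose-deprived libraries lay above all 4 regular ones, and KO and EV libraries overlapped within each medium. SELENOK rose 2.76-fold in KO cells (log2 fold change 1.47 ± 0.061, SE, adjusted p = 8.8e-09) and 2.97-fold in EV cells (1.57 ± 0.061, adjusted p = 5.0e-09). The annotation holds 3 SELENOK pseudogenes, and how the authors counted reads that match a gene and its copies is not given in the sources used here.

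SELENOS, also called VIMP, anchors VCP at the ER membrane. Its level was 115.5 and 108.2 CPM in KO and 123.8 and 120.0 CPM in EV cells in glucose-deprived medium, against 65.6 and 67.3 CPM in KO and 62.7 and 62.1 CPM in EV cells in regular medium. The libraries of the 4 groups did not overlap, the order being EV and then KO cells in glucose-deprived medium, followed by KO and then EV cells in regular medium. The rise was 1.68-fold in KO cells (0.75 ± 0.041, adjusted p = 5.5e-08) and 1.95-fold in EV cells (0.97 ± 0.041, adjusted p = 8.6e-09).

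SELENOF, the UGGT partner, was at 112.1 and 104.6 CPM in KO and 112.3 and 109.1 CPM in EV cells in glucose-deprived medium, against 103.6 and 109.6 CPM in KO and 110.8 and 108.8 CPM in EV cells in regular medium. Its 4 groups overlapped throughout. The log2 difference between media was 0.023 ± 0.044 in KO and 0.012 ± 0.044 in EV cells (adjusted p = 0.64 and 0.82).

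SELENON, an ER membrane protein that regulates the calcium pump SERCA and is mutated in human congenital myopathies, was at 178.7 and 172.6 CPM in KO and 185.2 and 190.2 CPM in EV cells in glucose-deprived medium, against 228.0 and 208.5 CPM in KO and 207.0 and 213.5 CPM in EV cells in regular medium. It fell in both cell types, by a log2 fold change of -0.31 ± 0.044 in KO cells (adjusted p = 8.5e-05) and -0.16 ± 0.044 in EV cells (adjusted p = 0.0063). The fall in EV cells was small and was not called without EV glucose-deprived library a (adjusted p = 0.053) or without EV regular library b (adjusted p = 0.058).

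SELENOT, a thioredoxin-like ER membrane protein, was at 47.9 and 44.2 CPM in KO and 46.7 and 47.5 CPM in EV cells in glucose-deprived medium, against 58.7 and 62.8 CPM in KO and 62.6 and 60.4 CPM in EV cells in regular medium. Every glucose-deprived library was below every regular one, with log2 fold changes of -0.40 ± 0.050 in KO (adjusted p = 3.5e-05) and -0.39 ± 0.050 in EV cells (adjusted p = 4.1e-05). SELENOT overlaps SERP1 on the opposite strand, and this library preparation does not record strand. SERP1, named here after that overlap was seen, rose by 1.05 in KO and 0.95 in EV cells on the log2 scale (adjusted p = 5.1e-09 and 8.9e-09), opposite to SELENOT.

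SELENOM, a thioredoxin-like protein of the ER lumen, was the lowest in raw CPM, at 16.6 and 22.6 CPM in KO and 17.4 and 14.9 CPM in EV cells in glucose-deprived medium, against 15.9 and 12.1 CPM in KO and 18.6 and 17.97 CPM in EV cells in regular medium. Its libraries scattered widely in KO cells. It rose in KO cells (0.48 ± 0.15, adjusted p = 0.013), and the difference in EV cells was -0.19 ± 0.15 (adjusted p = 0.27). The call in KO cells was lost without KO glucose-deprived library b (0.26, adjusted p = 0.12) and without KO regular library b (0.29, adjusted p = 0.13).

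**Figure D3:**
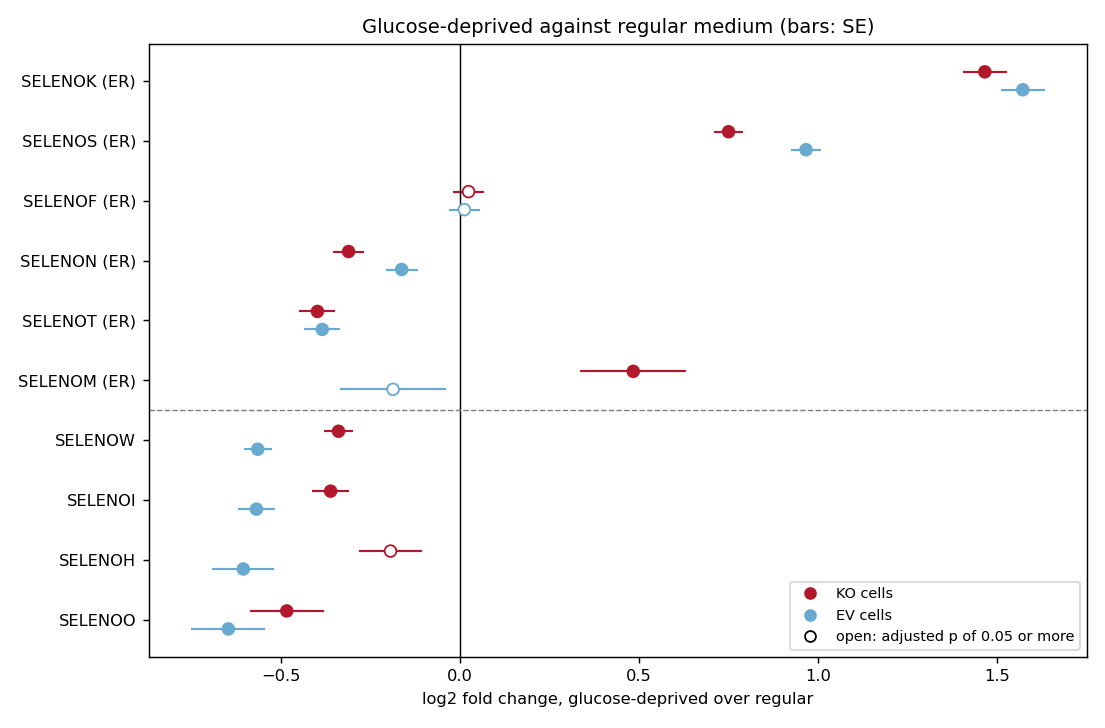
Log2 fold change of each selenoprotein gene, glucose-deprived over regular medium, in KO (red) and EV (blue) cells; bars are standard errors and open points have an adjusted p of 0.05 or more. The ER genes spread from about -0.40 (SELENOT) to 1.57 (SELENOK), and the other 4 genes, under the dashed line, lie left of 0.

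The 4 selenoproteins outside the ER class all fell in EV cells, and 3 of them in KO cells. SELENOW was at 48.4 and 47.8 CPM in KO and 40.2 and 39.7 CPM in EV cells in glucose-deprived medium, against 62.3 and 59.4 CPM in KO and 58.8 and 59.5 CPM in EV cells in regular medium. It fell by 0.34 in KO (adjusted p = 1.8e-05) and by 0.57 in EV cells (adjusted p = 3.2e-07) on the log2 scale. The libraries of a group lay close together, and its standard error of 0.039 was the smallest of the 10 genes.

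SELENOI transfers phosphoethanolamine to diacylglycerol, the last step of the CDP-ethanolamine route to phosphatidylethanolamine. Its level was 89.99 and 85.7 CPM in KO and 73.1 and 71.1 CPM in EV cells in glucose-deprived medium, against 106.9 and 119.1 CPM in KO and 105.9 and 108.2 CPM in EV cells in regular medium. The log2 fold change with deprivation was -0.36 ± 0.051 in KO (adjusted p = 7.7e-05) and -0.57 ± 0.051 in EV cells (adjusted p = 2.1e-06). SELENOI and SELENOW were the closest pair of the family in profile, at a distance of 0.169 between centred log2 values over the 8 libraries.

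SELENOO, a mitochondrial protein that transfers AMP to other proteins, was at 22.2 and 28.5 CPM in KO and 23.6 and 21.9 CPM in EV cells in glucose-deprived medium, against 37.8 and 32.8 CPM in KO and 36.4 and 34.9 CPM in EV cells in regular medium. Deprived libraries lay below all regular ones, with log2 fold changes of -0.48 ± 0.10 in KO (adjusted p = 0.0015) and -0.65 ± 0.10 in EV cells (adjusted p = 0.00019). The value in KO cells was -0.30 without KO glucose-deprived library a and -0.66 without library b, and it was called with each of the 8 libraries left out (highest adjusted p 0.018).

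SELENOH was at 64.9 and 81.5 CPM in KO and 59.5 and 58.7 CPM in EV cells in glucose-deprived medium, against 87.9 and 78.9 CPM in KO and 90.5 and 89.5 CPM in EV cells in regular medium. It fell in EV cells (-0.61 ± 0.087, adjusted p = 8.2e-05). In KO cells the libraries of the media overlapped, and the difference was -0.19 ± 0.087 (adjusted p = 0.064). That difference was called without KO glucose-deprived library b (adjusted p = 0.00037) or KO regular library b (adjusted p = 0.038). SELENOH overlaps the read-through gene TMX2-CTNND1 on its own strand and BTBD18 on the other, so its counts may depend on how such reads were assigned. The same limit holds for other members. An annotated gene overlaps 6 of the 10, which besides SELENOT and SELENOH are SELENOM, SELENON, SELENOI and SELENOO. Named pseudogenes exist for 3 of the 10, SELENOK, SELENOT and SELENOW.

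The ERAD and glycoprotein folding partners mostly rose, as SELENOK and SELENOS did. Of the 18 listed genes with a row, SELENOK and SELENOS included, 14 rose and 2 fell in KO cells, and 16 rose and 2 fell in EV cells. Their median log2 fold change was 0.65 in KO and 0.80 in EV cells. Over all genes tested 36.5% rose and 36.8% fell in KO cells, and 37.5% rose and 38.7% fell in EV cells. These shares also stand beside the counts of the next lists in this comparison of media. HERPUD1, an ERAD scaffold, was at 402.7 and 427.5 CPM in KO and 409.1 and 402.5 CPM in EV cells in glucose-deprived medium, against 16.6 and 16.6 CPM in KO and 17.6 and 18.1 CPM in EV cells in regular medium (log2 fold changes 4.64 ± 0.039 and 4.51 ± 0.039 in KO and EV cells). SEL1L and SYVN1, the adaptor and ligase of the main ERAD complex, rose by 2.25 and 1.91 in KO and by 2.28 and 2.18 in EV cells. The partners named above for SELENOK, SELENOS and SELENOF moved less than these 3 genes. Without glucose, DERL2 of the same list was at 83.2 and 79.9 CPM in KO and 94.9 and 91.8 CPM in EV cells. In regular medium DERL2 was at 40.0 and 42.5 CPM in KO and 42.1 and 42.4 CPM in EV cells. DERL1 rose by 0.27 in KO and 0.30 in EV cells, and UGGT1 by 0.56 and 0.69. VCP rose by 0.15 in EV cells (adjusted p = 0.00093), with 0.052 in KO cells (adjusted p = 0.15). ZDHHC6, the enzyme that works with SELENOK, fell by a log2 fold change of -0.48 ± 0.051 in KO and -0.50 ± 0.051 in EV cells (adjusted p = 9.8e-06 and 6.3e-06). The general ER stress genes HSPA5 and DDIT3 rose by 3.41 and 4.41 in KO and by 3.19 and 4.60 in EV cells, several times the log2 change of SELENOS. Mean HSPA5 was 745.2 CPM in KO and 966.6 CPM in EV cells in regular medium, against 7928.5 and 8796.2 CPM without glucose.

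More genes of ethanolamine and choline phospholipid synthesis fell, as SELENOI did, than rose. Of 13 in the table, SELENOI included, 2 rose and 7 fell in KO cells, and 3 rose and 8 fell in EV cells. The medians were -0.16 in KO and -0.16 in EV cells. ETNK1, the ethanolamine kinase at the start of the route, was at 16.3 and 17.4 CPM in KO and 14.3 and 15.1 CPM in EV cells in glucose-deprived medium, against 35.6 and 37.7 CPM in KO and 41.7 and 43.04 CPM in EV cells in regular medium (log2 fold changes -1.12 ± 0.055 and -1.52 ± 0.055 in KO and EV cells). CHKA, choline kinase alpha, fell by 0.60 in KO and by 0.93 in EV cells. PTDSS1, a phosphatidylserine synthase, fell by 0.53 in KO and by 0.62 in EV cells. PCYT2, which makes the CDP-ethanolamine that SELENOI uses, differed by -0.0018 ± 0.046 in KO and 0.10 ± 0.046 in EV cells (adjusted p = 0.97 and 0.074). Of the 2 rises in KO cells, none was called without KO regular library b.

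Selenoproteins outside the family and the machinery they share moved in both directions. Of 9 further selenoproteins with a row, 4 rose and 4 fell in KO cells, and 2 rose and 4 fell in EV cells, with medians of 0.078 in KO and 0.039 in EV cells. DIO2, a thyroid hormone deiodinase, was at 2.597 and 2.702 CPM in KO and 2.48 and 2.47 CPM in EV cells in glucose-deprived medium, against 8.74 and 9.98 CPM in KO and 9.62 and 10.1 CPM in EV cells in regular medium (log2 fold changes -1.81 ± 0.088 and -1.99 ± 0.088 in KO and EV cells). TXNRD1 rose by 0.54 in KO and 0.94 in EV cells, and SEPHS2, a selenoprotein that makes the selenium donor, by 0.75 and 0.68. GPX1, a glutathione peroxidase whose mRNA is known to fall with low selenium, fell by 0.21 in KO and by 0.32 in EV cells. GPX4, the peroxidase that guards against ferroptosis, rose by 0.19 in KO cells (adjusted p = 0.011), with 0.039 in EV cells (adjusted p = 0.55). The 4 rises in KO cells became 2 without KO glucose-deprived library b or without KO regular library b.

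Of 14 genes of selenocysteine synthesis and insertion, which again include SEPHS2, 8 rose and 4 fell in KO cells, and 7 rose and 5 fell in EV cells, with medians of 0.12 in KO and 0.14 in EV cells. The 8 rises became 5 without KO regular library a. SARS1, which charges the selenocysteine tRNA with serine and serves serine decoding in general, rose by 1.40 in KO and 1.67 in EV cells. SECISBP2, which binds the SECIS element, rose by 0.40 in KO and 0.36 in EV cells (adjusted p = 6.8e-06 and 1.4e-05). EEFSEC, the elongation factor that delivers the tRNA, rose by 0.13 in KO cells (adjusted p = 0.0495), with 0.092 in EV cells (adjusted p = 0.13). EIF4A3, which competes with SECISBP2 at a subset of SECIS elements, fell by 0.38 in KO and by 0.43 in EV cells. Of 6 genes of selenium supply 3 were in the table, and LRP1 rose by 0.42 in KO and 0.43 in EV cells. SCLY, which releases selenium from selenocysteine, was at 0.711 and 1.69 CPM in KO and 0.758 and 0.7602 CPM in EV cells in glucose-deprived medium, against 1.53 and 1.17 CPM in KO and 2.21 and 2.21 CPM in EV cells in regular medium, and fell with deprivation in EV cells (adjusted p = 0.0012, against 0.43 in KO cells).

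Among 11 ER calcium genes in the table, 6 rose and 3 fell in each cell type, SELENON and SELENOM being outside this list, and the medians were 0.20 in KO and 0.26 in EV cells. CALR, a calcium-binding chaperone of the lumen, rose by 1.32 in KO and 1.29 in EV cells. ATP2A2, the SERCA pump that SELENON regulates, rose by 0.60 in KO and 0.69 in EV cells, opposite to SELENON. CANX, a membrane chaperone of glycoproteins, rose by 0.69 in KO and 0.64 in EV cells. ITPR1, a calcium channel palmitoylated by ZDHHC6 with SELENOK, rose by 0.48 in KO and 0.36 in EV cells.

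**Figure D4:**
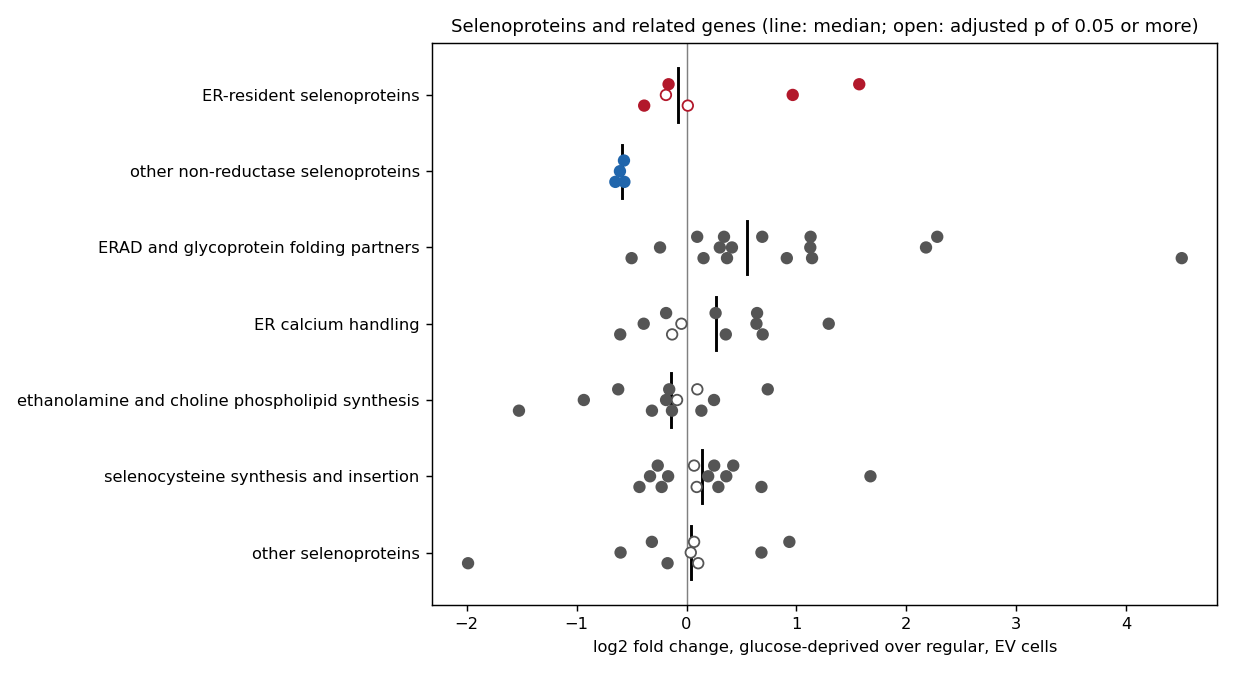
Log2 fold change, glucose-deprived over regular medium, in EV cells for the ER-resident and the other selenoproteins of the family and for 5 related lists with the family's own members left out; each point is a gene and each black line a median. The ERAD list reaches 4.51 (HERPUD1), and the 4 selenoproteins outside the ER class, SELENOI counted among them, lie in a narrow band below 0.

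SELENOK and SELENOS were the only members to rise in both cell types, so their promoters are shown, as the 250 bases before the annotated start from RefSeq (GRCh38.p14). A promoter was in that table for 8 of the 10 genes. Capitals mark the half-sites of the ER stress response element, CCAAT and CCACG, on either strand. The SELENOK sequence is chr3:53891860-53892109 and the SELENOS sequence chr15:101277486-101277735, both minus strand.
SELENOK: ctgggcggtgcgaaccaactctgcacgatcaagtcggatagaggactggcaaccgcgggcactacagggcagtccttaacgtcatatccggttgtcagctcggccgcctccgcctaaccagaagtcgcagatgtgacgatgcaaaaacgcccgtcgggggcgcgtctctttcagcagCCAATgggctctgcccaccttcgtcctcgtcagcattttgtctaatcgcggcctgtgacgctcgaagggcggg
SELENOS: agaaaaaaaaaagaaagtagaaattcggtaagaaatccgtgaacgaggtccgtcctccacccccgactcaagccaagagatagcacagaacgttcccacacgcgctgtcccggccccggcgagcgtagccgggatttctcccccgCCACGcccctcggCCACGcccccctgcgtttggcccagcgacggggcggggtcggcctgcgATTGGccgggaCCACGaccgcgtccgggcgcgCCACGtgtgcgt
The SELENOK window had a CCAAT beginning 73 bases before the start and no CCACG. The SELENOS window had 4 CCACG, beginning 105, 92, 33 and 12 bases before the start, and CCAAT on the other strand, printed as ATTGG, beginning 44 bases before it. CCAAT alone was in 32.01% and CCACG alone in 33.5% of 35116 promoters of this length, and in 5 and 4 of the 8 selenoprotein promoters. The whole element, CCAAT and CCACG separated by 9 bases on either strand, was in 26 promoters (0.074%) and in none of the 8. Its form with any last base, tried after the SELENOK promoter was seen, was in 99 promoters (0.28%) and in that of SELENOK. The second form, ATTGG and CCACG separated by 1 base, and the unfolded protein response element TGACGTGG were in 0.051% and 0.61% of promoters and in none of the 8. The amino acid response element TGATGNAA, bound by ATF4 with its partners, was in 3.14% and in none of the 8. The core antioxidant response element TGACNNNGC was in 10.9% of promoters and in those of SELENOK and SELENON. All motifs were searched on both strands, CCAAT and CCACG are parts of the whole element, and these counts describe letters only.

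In glucose-deprived medium 3 of the 10 genes were called higher in KO than in EV cells and none lower, against 9.04% and 10.6% of all genes tested, or 19.6% in either direction. The 3 were SELENOW, SELENOI and SELENOH. The 4 genes outside the ER class as first split, these 3 and SELENOO, had a median log2 fold change of 0.28. The ER-resident genes had a median of -0.064, and all genes tested one of -0.0057. With SELENOI counted as ER-resident, 1 of 7 ER genes (median -0.033) and 2 of the other 3 (median 0.27) were higher.

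SELENOW was at 48.4 and 47.8 CPM in KO and 40.2 and 39.7 CPM in EV cells in this medium, a 1.202-fold difference (0.27 ± 0.039, SE, adjusted p = 0.0015). SELENOI was at 89.99 and 85.7 CPM in KO and 73.1 and 71.1 CPM in EV cells, a 1.22-fold difference (0.28 ± 0.051, adjusted p = 0.0044). SELENOH was at 64.9 and 81.5 CPM in KO and 59.5 and 58.7 CPM in EV cells, a 1.23-fold difference (0.30 ± 0.087, adjusted p = 0.037). In all 3 genes the KO libraries lay above the EV libraries and below the KO libraries in regular medium, except that 1 KO library of SELENOH reached the regular range. SELENOW was called with each of the 8 libraries left out in turn (adjusted p 0.0011 to 0.025). SELENOI was called in 7 of 8 and lost without EV glucose-deprived library b (adjusted p = 0.051). SELENOH was called in 3 of 8, and its log2 difference was 0.46 without KO glucose-deprived library a and 0.14 without library b. Its call was lost without KO glucose-deprived library b or EV glucose-deprived library b (adjusted p = 0.17 each), without EV glucose-deprived library a (0.14), and without EV regular library a (0.057) or b (0.058).

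SELENOS differed by -0.12 ± 0.041 on the log2 scale in KO against EV cells in this medium (adjusted p = 0.056), with both KO libraries below both EV libraries. SELENOK differed by -0.10 ± 0.061 (adjusted p = 0.27), SELENON by -0.10 ± 0.044 (adjusted p = 0.16) and SELENOM by 0.27 ± 0.15 (adjusted p = 0.22). SELENOT, SELENOF and SELENOO did not pass either, with log2 differences of -0.033, -0.032 and 0.15. Without KO glucose-deprived library a, SELENOS was called lower (adjusted p = 0.019) and SELENOM and SELENOO higher (adjusted p = 0.035 and 0.021). SELENOS was also called lower without KO regular library a (0.046) or b (0.047).

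**Figure D5:**
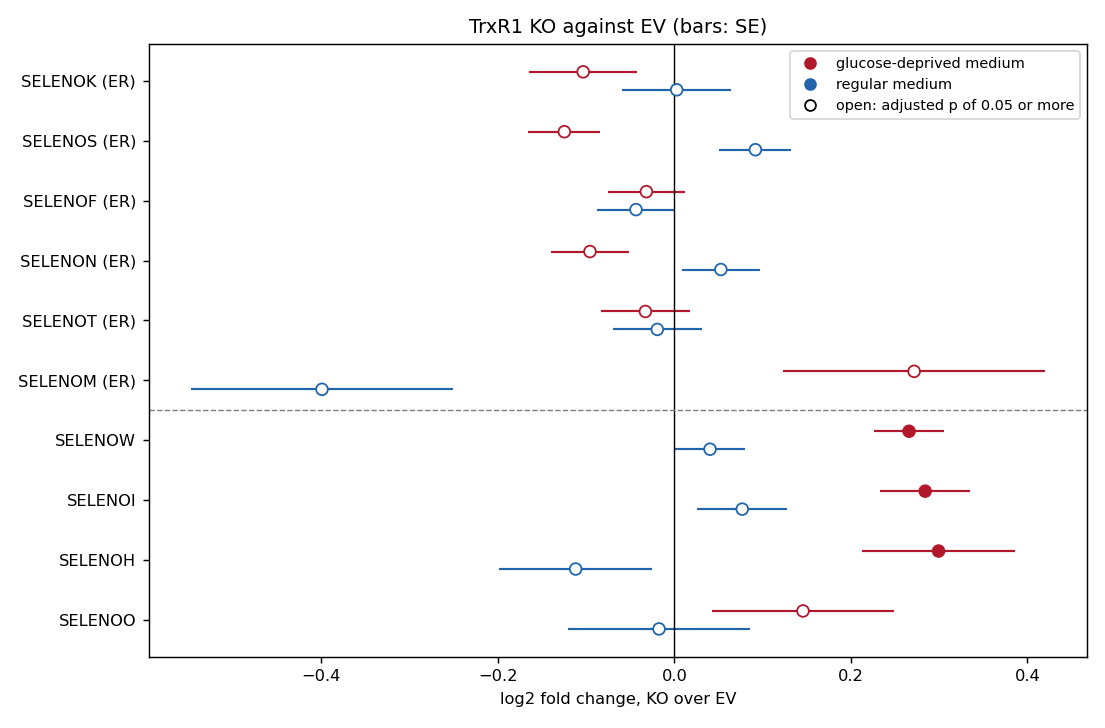
Log2 fold change of each selenoprotein gene, KO over EV cells, in glucose-deprived (red) and regular (blue) medium; bars are standard errors and open points have an adjusted p of 0.05 or more. SELENOW, SELENOI and SELENOH in glucose-deprived medium, at 0.27 to 0.30, are the only filled points.

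Over all genes tested 10.6% were lower and 9.04% higher in KO than in EV cells in glucose-deprived medium. Of the ERAD list, 5 of 18 genes were lower in this comparison and none higher, with a median of -0.067. They were SYVN1 (-0.30 ± 0.041, adjusted p = 0.00088), SEL1L (-0.23 ± 0.039, 0.0035), UGGT1 (-0.17), OS9 (-0.18) and DERL2 (-0.20). The 5 became 2 without EV glucose-deprived library a or b. In regular medium 1 ERAD gene was lower in KO cells and none higher, beside 3.38% and 3.87% of all genes tested. SEL1L there averaged 124.9 CPM in KO and 143.0 CPM in EV cells. In the phospholipid list 4 of 13 genes were higher in KO cells without glucose, namely CHKA (0.33, adjusted p = 0.00050), PTDSS1 (0.21), ETNK1 (0.19) and SELENOI. PCYT2, the enzyme just before SELENOI, was lower (-0.22 ± 0.046, adjusted p = 0.0099). The 4 became 2 without EV glucose-deprived library b. LRP8, a receptor for the selenium carrier SELENOP, was at 145.7 and 145.4 CPM in KO and 120.9 and 115.2 CPM in EV cells in glucose-deprived medium (adjusted p = 0.00048) and at 152.2 and 147.1 CPM in KO and 110.0 and 111.7 CPM in EV cells in regular medium (adjusted p = 0.00010). SELENOP itself had no row. GPX3, a secreted glutathione peroxidase, was likewise higher in KO cells in both media (0.35 and 0.34 in glucose-deprived and regular medium, adjusted p = 0.0067 and 0.017).

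In regular medium no selenoprotein of the family was called between KO and EV cells by limma, against 7.25% of all genes tested (3.87% higher and 3.38% lower). At an unadjusted p under 0.05 there were 2, SELENOM (-0.40 ± 0.15, adjusted p = 0.13) and SELENOS (0.092 ± 0.041, adjusted p = 0.20). The share of all genes at that unadjusted level is not given here, so the 2 are not read as an excess. The ER-resident genes had a median log2 fold change of -0.0083 and the other 4 one of 0.012. SELENOM was at 15.9 and 12.1 CPM in KO and 18.6 and 17.97 CPM in EV cells, without overlap. The 95% interval of the KO difference was -0.047 to 0.13 for SELENOW and -0.036 to 0.19 for SELENOI on the log2 scale.

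Whether the KO difference itself depended on the medium was tested as an interaction. No member was called by limma, against 4.31% of all genes tested (2.31% higher and 2.01% lower). The unadjusted p was under 0.05 in 6 members. The share of all genes at that unadjusted level is not given here, so nothing is read from that count. Of these 6, SELENOW (0.23 ± 0.056, adjusted p = 0.0502), SELENOM (0.67 ± 0.21, 0.094), SELENOH (0.41 ± 0.12, 0.084) and SELENOI (0.21 ± 0.072, 0.12) were positive, KO cells having relatively more of the mRNA in glucose-deprived medium. SELENOS (-0.22 ± 0.058, adjusted p = 0.063) and SELENON (-0.15 ± 0.063, 0.18) were negative. Leaving out 1 KO library brought calls: SELENOM, SELENOH, SELENOW and SELENOS without KO glucose-deprived library a, SELENOW without KO regular library a, and SELENOI and SELENON without KO regular library b. The 3 calls in glucose-deprived medium are therefore not shown to differ from the KO differences in regular medium.

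SELENOM, SELENOH and SELENOO shared a pattern between libraries of the same group. In KO glucose-deprived cells library b exceeded library a by 0.44, 0.33 and 0.36 on the log2 scale in SELENOM, SELENOH and SELENOO, where the median gap over all genes was 0.072. In KO regular cells library a exceeded library b by 0.40, 0.16 and 0.20, where the median gap was 0.078. The other 7 genes had gaps of at most 0.16 in any group. These 3 genes had the widest standard errors of the family, at 0.15, 0.087 and 0.10.

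The genes with the profile nearest to each of the 3 widest-ranging members were found by the distance between centred log2 values over the 8 libraries. LARP1B and AKNAD1 were nearest to SELENOK, at distances of 0.149 and 0.159. LETMD1 and CPED1 were nearest to SELENOS, at 0.076 and 0.098, and MFSD10 and ACAP3 to SELENOO, at 0.1003 and 0.121. LETMD1 changed with deprivation by 0.76 in KO and 0.95 in EV cells on the log2 scale, beside 0.75 and 0.97 for SELENOS. LARP1B changed by 1.43 in KO and 1.49 in EV cells.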

How the data were processed

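The authors deposited 1 table of log2 CPM for 13730 genes in 8 libraries, whose headers carry no replicate numbers. GlcN in a header was taken to mean glucose-deprived, although it also abbreviates glucosamine. Extraction used TRIzol, and libraries were made with SMART-Seq mRNA HT and Nextera XT kits, per the labels' protocols. HISAT2, edgeR and GRCh38 are named, without versions, per the submitters' processing notes. An offset of 0.023 CPM was removed for the CPM printed. Whole reads were then recovered in 100% of values within 0.05, 1 read being worth 0.0095 to 0.0143 CPM.

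In R 4.3.3, limma 3.58.1 fitted the deposited log2 values in 1 model over 4 groups with a variance trend (4 residual degrees of freedom, prior 6.29). The filter, a mean log2 CPM of 0 or more, left 13057 genes and removed 673. Two-sided p-values were adjusted with the Benjamini-Hochberg method over all genes tested in a contrast, and calls use an adjusted p under 0.05. They measure the spread between these libraries, which may be technical.

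The members, lists and tests were chosen with earlier results of these data known. All 10 members are named, and from each list up to 3 genes by smallest adjusted p, those with a stated role beside a selenoprotein, and a fixed panel of stress genes. All 5 ERAD genes called lower in KO cells without glucose were also named after their values were seen, DERL2 and OS9 among them. The fit was tested on simulated data with 200 changed genes. Alternatives changed the filter, pseudocount, variance trend, scaling, samples in the fit and each library left out.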

Additional observations from a re-analysis of the deposited data

Results flagged for a closer look

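The interaction test of limma called a KO difference that depended on the medium in 7 of 71 related and stress genes tested (9.86%), against 4.31% of all genes tested. These genes were chosen with earlier results known, so nothing is read from that share. No member of the family was called, and the smallest adjusted p among them was that of SELENOW, 0.0502. The values are the log2 KO difference in glucose-deprived medium minus that in regular medium. TXNRD1 was at -0.39 (adjusted p = 0.0025), with KO differences of -0.47 in glucose-deprived and -0.083 in regular medium. SARS1 was at -0.27 (adjusted p = 0.013) and the ERAD ligase SYVN1 at -0.27 (adjusted p = 0.033). ETNK1 was at 0.40 (adjusted p = 0.019) and CHKA at 0.33 (adjusted p = 0.010), the same sign as SELENOI. Of the stress genes, ATF4 was at -0.29 (adjusted p = 0.0085) and XBP1 at 0.33 (adjusted p = 0.0030). Mean ATF4 was 428.2 CPM in KO against 357.5 CPM in EV cells with glucose, and 878.9 against 897.5 CPM without it. The ATF4 value thus came mostly from regular medium. SARS1 was likewise higher in KO cells with glucose (191.1 against 170.7 CPM) and lower without it (504.9 against 544.8 CPM). ETNK1 and XBP1 were lower in KO cells with glucose (36.7 against 42.4 and 66.3 against 70.5 CPM). Without glucose they were higher (16.8 against 14.7 and 488.1 against 413.1 CPM).
With each of the 8 libraries left out in turn, the interactions of TXNRD1 and XBP1 were called every time, with highest adjusted p-values of 0.025 and 0.037. That of ATF4 was lost without EV glucose-deprived library a (adjusted p = 0.069) or EV regular library a (adjusted p = 0.080). Those of SARS1, CHKA, ETNK1 and SYVN1 were each lost without any 1 of the 4 EV libraries, with highest adjusted p-values of 0.099 for SARS1, 0.081 for CHKA, 0.11 for ETNK1 and 0.17 for SYVN1. ETNK1 was also lost without KO regular library a (adjusted p = 0.053), and SYVN1 without that library (adjusted p = 0.062) or KO glucose-deprived library b (adjusted p = 0.057). Without a variance trend in the fit, ATF4, ETNK1, SARS1 and SYVN1 were not called, with adjusted p-values of 0.066, 0.065, 0.076 and 0.12 in that order. All 7 genes kept the sign of their difference with every library left out.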

How the results depend on the processing

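No value of the 10 genes that was called changed sign under any alternative. No paired analysis was possible because the columns carry no replicate numbers. Under the 6 alternatives other than leaving out each library in turn, calls changed in 4 places. Of these alternatives, the fit with only the groups compared dropped the libraries of the other groups and had no interaction. SELENOW was called for the interaction when the filter was a mean log2 CPM of at least 2, making 1 member higher (adjusted p = 0.045). SELENOH lost its KO call in glucose-deprived medium without the variance trend (adjusted p = 0.11) and with only the groups compared in the fit (adjusted p = 0.054), and SELENOM was called lower in EV cells under deprivation with only the groups compared (adjusted p = 0.023). With SELENOI counted as ER-resident, the ER median with deprivation moved to 0.023 in KO and -0.16 in EV cells. The rises of the selenocysteine synthesis list in KO cells became 5 with only the groups compared.

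Leaving out each library in turn, the members called higher in KO cells in glucose-deprived medium ranged over 1 to 5 and those called lower over 0 to 1; 5 were higher and 1 lower without KO glucose-deprived library a, and 1 higher without EV glucose-deprived library b. For the interaction they ranged over 0 to 3 higher and 0 to 1 lower. The ER median ranged over -0.11 to -0.0084 for KO against EV in glucose-deprived and -0.070 to 0.014 in regular medium. It ranged over 0.17 to 0.34 for deprivation in KO cells, -0.077 to -0.022 in EV cells and -0.12 to 0.0031 for the interaction. The median of the other 4 genes ranged over 0.21 to 0.29 for KO against EV in glucose-deprived and -0.056 to 0.037 in regular medium. The cause of these shifts was not tested. Leaving out a library leaves 1 library in its group, whose spread is taken from the other groups. Another scaling moved the median of all genes by -0.0092 to 0.0088 (log2) across the contrasts.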
